A study of Saccharomyces cerevisiae with 8 samples.

Results

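The 60 genes described here code for ribosome biogenesis factors of Saccharomyces cerevisiae. They were taken from a fixed list of names that uses the function of the proteins and no measured value. The list was nevertheless chosen with earlier results of these data known. Of the 60, 58 had a row in the gene tables, out of 6170 genes with a row in all, and all 58 passed the filter on low counts. IMP4 and DBP2 were not analysed here. By function, 6 of the 58 are core proteins of small nucleolar ribonucleoprotein particles (snoRNPs), 21 act on the small subunit, 26 act on the large subunit, and 5 act on both or are not settled. Expression was measured by messenger RNA sequencing in XH7 and BSGX001, strains engineered to ferment xylose. XH7 is diploid, carries xylose isomerase (XI) at pho13 and at delta sequences (labelled 3δ::XI) and pentose phosphate pathway genes (PPP) at gre3, expresses xylulokinase (XK), and was adapted on xylose. BSGX001 is haploid, carries Ru-XI and XK with PPP at gre3, has a deletion of cox4, and was also adapted on xylose. GX samples came from a fermentation fed glucose and xylose at 20 g/L each and were drawn at 14 h, after the glucose was gone. X samples came from a fermentation fed xylose alone at 20 g/L and were drawn at 12 h. Each strain was sampled 2 times per stage, which gives 8 libraries of 5279864 to 7675099 counts. By the study's methods the 2 libraries of a group came from duplicate batch fermentations, so p values measure the spread between such fermentations of 1 line. The sources disagree on whether XH7 comes from the same laboratory lineage as BSGX001, and each strain is 1 evolved line. In the strain comparison the engineering, ploidy, lineage and the fit of the reads to the reference genes therefore cannot be told apart. In the stage comparison the hour of sampling, the rate of growth and the earlier supply of glucose cannot be told apart either.

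Ribosome biogenesis starts in the nucleolus, where RNA polymerase I makes the long precursor of the ribosomal RNAs. Box C/D snoRNPs guide methylation of this RNA and box H/ACA snoRNPs guide its pseudouridylation. The U3 snoRNP and the UTP proteins assemble on the precursor as the small subunit processome, and another series of factors folds and trims the part that becomes the large subunit and carries it out of the nucleus. Yeast generally makes more of these factors when it grows faster, and many of their genes share the promoter elements PAC and RRPE. PAC is bound by the repressors Dot6 and Tod6, and RRPE is bound by Stb3.

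The promoters of the listed genes were read first, because promoter letters do not depend on the libraries. The window ran from 250 bases before to 50 bases after the start codon on build R64, the reference genome named in the submitters' notes. The gene identifiers carry the name of CEN.PK113-7D, so the letters are those of the reference and not of BSGX001 or XH7. The PAC core was searched as GATGAG and the RRPE core as GAAAAATTT, on either strand. Neither core contains the other, and overlapping matches were all counted. PAC was found in 56 of the 60 promoters (93.3%), against 20.4% of all 6001 protein-coding promoters. RRPE was found in 32 (53.3%), against 6.08%, and both in 30, against 3.08%. All 6 snoRNP promoters held both, compared with 8 of 22 small-subunit and 12 of 26 large-subunit promoters. NOP53 and UTP22 held neither. Both cores were chosen because they are known from promoters of yeast ribosome biogenesis genes. A high share among the listed genes was therefore set in advance and is not a separate result. A match is a description of the letters and does not show binding.

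The stretches below show how closely the cores lie together in snoRNP, processome and large-subunit genes, and what the promoters of 3 genes with another pattern of expression look like. Each is given 5′ to 3′ towards the start codon of the named gene, with PAC and RRPE cores in capitals. NOP1 lies at chrIV:427122-427180 (plus strand), CBF5 at chrXII:505919-506023 (plus), NOP56 at chrXII:545955-546008 (plus), UTP21 at chrXII:937324-937383 (minus), RRP8 at chrIV:611959-612006 (plus), SSF1 at chrVIII:229138-229258 (plus), NOP16 at chrV:156683-156718 (plus), RRP14 at chrXI:282404-282479 (minus) and NOP53 at chrXVI:277570-277629 (minus).
NOP1: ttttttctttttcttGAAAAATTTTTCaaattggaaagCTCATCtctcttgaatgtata
CBF5: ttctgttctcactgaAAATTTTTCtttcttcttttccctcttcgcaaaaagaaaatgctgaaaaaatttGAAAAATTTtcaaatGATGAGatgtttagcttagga
NOP56: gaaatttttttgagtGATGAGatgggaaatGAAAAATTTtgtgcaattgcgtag
UTP21: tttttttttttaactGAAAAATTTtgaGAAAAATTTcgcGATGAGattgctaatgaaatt
RRP8: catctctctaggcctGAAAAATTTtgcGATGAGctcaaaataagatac
SSF1: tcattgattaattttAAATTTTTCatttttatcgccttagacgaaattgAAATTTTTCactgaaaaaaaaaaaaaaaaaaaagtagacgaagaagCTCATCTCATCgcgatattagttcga
NOP16: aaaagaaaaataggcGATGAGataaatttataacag
RRP14: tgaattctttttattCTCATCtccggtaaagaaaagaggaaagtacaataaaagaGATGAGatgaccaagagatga
NOP53: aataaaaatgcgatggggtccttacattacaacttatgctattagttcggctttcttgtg

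In NOP1, the run GAAAAATTTTTC is an RRPE match on each strand. NOP16 and RRP14 held PAC without RRPE, and the NOP53 stretch is shown for its lack of both. Among matches that begin before the start codon, the median first base over the 60 promoters lay at -123 for PAC and -142 for RRPE, counted from that codon. Over all protein-coding promoters the medians were nearly the same, at -124 and -140.

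**Figure D1:**
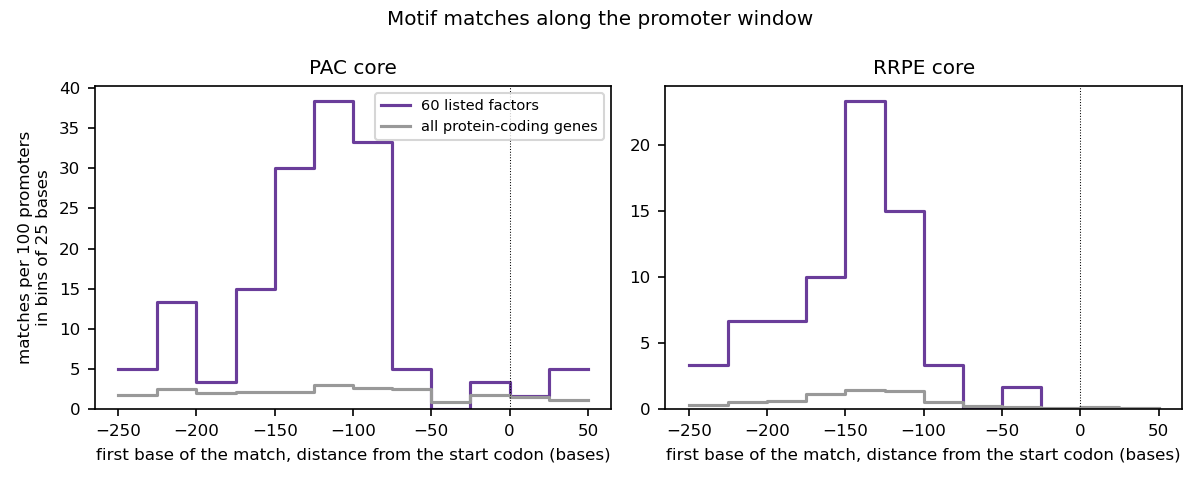
Matches to the PAC core (left) and the RRPE core (right) per 100 promoters, in bins of 25 bases along the window around the start codon (distance in bases), for the 60 listed factors and all protein-coding genes. In the listed genes, PAC matches peak between -150 and -75 and RRPE matches between -150 and -101. The line for all genes stays under 5 matches per 100 promoters in every bin.

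Levels are given as RPKM, the rounded expected counts per kb of gene length, scaled to library size by TMM, so that they can be compared between genes and libraries. The 58 members together took 0.947% ± 0.162 of the counts in XH7 GX cells, 0.959% ± 0.0391 in XH7 X cells, 0.42% ± 0.00537 in BSGX001 GX cells and 0.662% ± 0.0853 in BSGX001 X cells (SD, n = 2 each). These are shares of the RNA sampled, so a change in the amount of RNA per cell cannot be told apart from them. The snoRNP proteins were the most abundant class. Their median was 295 ± 37.5 RPKM in XH7 GX cells and 399 ± 4.38 RPKM in XH7 X cells, and 122 ± 0.303 RPKM in BSGX001 GX cells and 215 ± 37.7 RPKM in BSGX001 X cells. The small-subunit factors had the lowest median, between 21.1 ± 1.07 RPKM in BSGX001 GX cells and 58 ± 2.09 RPKM in XH7 X cells.

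The libraries of a group were not equally alike. In XH7 GX cells, replicate 1 was below replicate 2 for 58 of 58 members, by a median of 0.38 on the log2 scale, while 50.3% of all 5921 tested genes were lower in replicate 1. In BSGX001 X cells, replicate 1 was below replicate 2 for only 2 of 58 members, with a median difference of 0.24. Ribosomal proteins did not share the XH7 offset, with 9.08% of the counts in GX replicate 1 and 8.94% in GX replicate 2. The counts and medians that rest on these libraries are given with and without them.

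**Figure D2:**
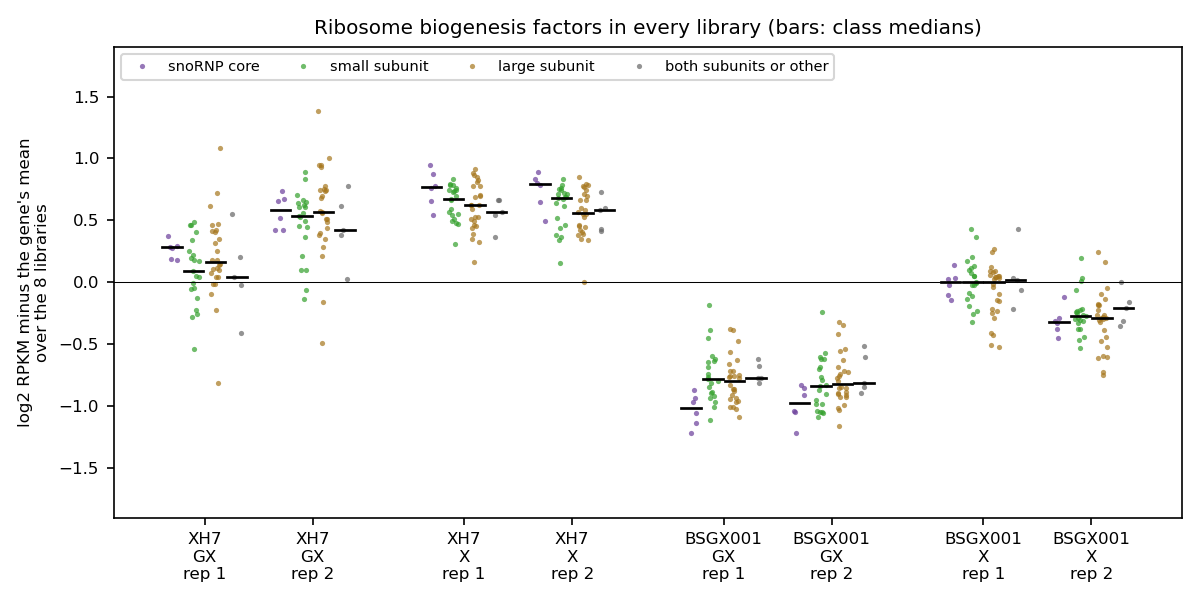
log2 RPKM of each of the 58 members minus its mean over the 8 libraries, with 1 point per gene, coloured by class, and bars at the class medians. All 4 class medians are lower in XH7 GX replicate 1 than in XH7 GX replicate 2, and the BSGX001 GX libraries are the lowest of all.

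In BSGX001, ribosome biogenesis factors had lower levels in GX cells than in X cells across every class. By edgeR's quasi-likelihood test with Benjamini-Hochberg adjustment over all tested genes, 52 of 58 members fell and 0 rose at an adjusted p of 0.05 or less. Among all genes 24.7% fell and 23.0% rose. The median log2 change was -0.67 over the members and -0.02 over all tested genes. Both GX libraries lay below both X libraries for 58 of 58 members, against 41.1% of all genes, and above them for 0 members, against 38.0%. The falls were modest, and NOP1 alone passed 2-fold.

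The snoRNP proteins fell in 6 of 6 cases, with a median of -0.80. NOP1, the fibrillarin methyltransferase of box C/D particles, had 124 and 123 RPKM in BSGX001 GX cells, against 292 and 221 RPKM in BSGX001 X cells. Its groups were far apart, although the X libraries differed from each other. NOP1 fell by 1.05 ± 0.166 (SE, adjusted p = 0.001). NOP56, another core protein of box C/D particles, had 109 and 110 RPKM in GX cells, against 249 and 185 RPKM in X cells, a fall of 0.99 ± 0.161 (adjusted p = 0.00116). CBF5, the pseudouridine synthase of box H/ACA particles, had 125 and 127 RPKM in GX cells, against 234 and 192 RPKM in X cells. CBF5 fell by 0.76 ± 0.131, the GX libraries being nearly equal. NOP58, GAR1 and NHP2 completed the class with falls of 0.83, 0.72 and 0.77.

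Of the 21 small-subunit factors, 18 fell, with a median of -0.70. RRP9, a protein of the U3 snoRNP, had 25.8 and 21.8 RPKM in BSGX001 GX cells, against 49.8 and 43.4 RPKM in BSGX001 X cells. It fell by 0.97 ± 0.119 (adjusted p = 0.0003) with no overlap of the groups. UTP21, of the UtpB complex of the processome, had 14.4 and 16.7 RPKM in GX cells, against 32.8 and 26 RPKM in X cells, a fall of 0.92 ± 0.136. UTP9, of the UtpA complex, also fell by 0.92 (SE 0.153). NSR1, the yeast nucleolin and the most abundant small-subunit factor, fell by 0.70 ± 0.151. MPP10, UTP20 and UTP5 did not pass the test, with changes of -0.36, -0.34 and -0.33 and adjusted p values of 0.0699, 0.0628 and 0.0923.

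Of the 26 large-subunit factors, 23 fell, with a median of -0.61. RRP8, a methyltransferase of the large-subunit rRNA, had 26.9 and 28.4 RPKM in BSGX001 GX cells, against 58.6 and 44.1 RPKM in BSGX001 X cells, a fall of 0.90 ± 0.172. ERB1 and YTM1, partners in the Nop7-Erb1-Ytm1 complex, fell by 0.85 ± 0.178 and 0.75 ± 0.129. NOP4 fell by 0.80 ± 0.149. TIF6, which keeps the immature large subunit from joining the small one, had 161 and 151 RPKM in GX cells, against 229 and 212 RPKM in X cells, a fall of 0.50 ± 0.109. NOP53, which brings the helicase Mtr4 to the particle, had the smallest change, -0.17 ± 0.128 (adjusted p = 0.298), and NOP8 (-0.43) and NSA1 (-0.31) did not pass either. All 5 factors of both subunits or other roles fell, between 0.53 for RRP14 and 0.80 for HAS1, a DEAD-box helicase. RRP12, RRP5 and NOP13 fell by 0.67, 0.65 and 0.63.

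The BSGX001 contrast was refitted without each library in turn. The members' median was -0.51 without X replicate 1, -0.68 without GX replicate 1 and -0.67 without GX replicate 2. Over all tested genes it was -0.01, -0.02 and -0.03. Without any of these libraries fewer members passed as lower, and so did a smaller share of all genes. In all 8 of these fits, 29 members kept the call, among them NOP1, NOP56, CBF5, RRP9, UTP21, UTP9, NSR1, RRP8, ERB1, YTM1, RRP14 and HAS1. The call of TIF6 was lost without GX replicate 2.

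In XH7, the same stage contrast was smaller and mixed. By edgeR, 20 of 58 members fell, 3 rose and 35 did not pass. Among all genes 22.0% fell and 26.7% rose. The median log2 change was -0.28 over the members and 0.04 over all tested genes. It was -0.10 over the members without GX replicate 1 and -0.48 without GX replicate 2. Both GX libraries lay below both X libraries for 33 members, against 34.7% of all genes, and above them for 4 members (NOP16, NOP53, TIF6 and RRP14), against 39.9% of all genes.

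The small-subunit factors held 9 of the 20 falls. UTP21 had 21 and 24.4 RPKM in XH7 GX cells, against 40.5 and 40.9 RPKM in XH7 X cells. It fell by 0.84 ± 0.136 (adjusted p = 0.00089), with a clear gap between the groups. UTP22, of the UtpC complex, had 31.4 and 33.6 RPKM in GX cells, against 52.3 and 55.9 RPKM in X cells, a fall of 0.74 ± 0.109. RRP9 had 41.5 and 46.1 RPKM in GX cells, against 72.3 and 71.1 RPKM in X cells, a fall of 0.71 ± 0.117. Of the 6 UtpA members, UTP4, UTP10 and UTP15 fell by 0.55, 0.41 and 0.45, and UTP8 (-0.45), UTP9 (-0.20) and UTP5 (-0.10) did not pass. Differences between these members were not tested, and the call of UTP10 held in 3 of the 8 fits that left out 1 library. MPP10 and UTP20 had changes of 0.19 and -0.03 and did not pass.

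CBF5 was the only snoRNP protein past the threshold in XH7, with 271 and 319 RPKM in GX cells, against 407 and 415 RPKM in X cells, a fall of 0.48 ± 0.13 (adjusted p = 0.0132). NOP1 had 348 and 459 RPKM in GX cells, against 554 and 532 RPKM in X cells. NOP1 changed by -0.43 ± 0.163 and missed the threshold (adjusted p = 0.0531), as did NOP56 at -0.42 (adjusted p = 0.0546). NHP2, of box H/ACA particles, had 378 and 515 RPKM in GX cells, against 450 and 435 RPKM in X cells, so that its groups overlapped.

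Among the large-subunit factors 7 fell and 2 rose. SSF1, which acts in early large-subunit assembly, had 18.5 and 23 RPKM in XH7 GX cells, against 56.8 and 55.8 RPKM in XH7 X cells. It fell by 1.45 ± 0.121 (adjusted p = 2.94e-05) and was the only member past 2-fold. Its paralog SSF2 had 52.8 and 60.6 RPKM in GX cells, against 55.4 and 58 RPKM in X cells, a change of -0.003, which did not pass. The genes are 92.1% identical over their whole length, so reads may have been split between them, and with their counts added the fall was 0.55 (adjusted p = 0.00293). YTM1, MAK16 and RRP1 fell by 0.75, 0.58 and 0.53. Of the 5 factors of both subunits or other roles, 3 fell in XH7 and RRP14, described below, rose. HAS1 fell by 0.73 ± 0.177, RRP12 by 0.38 ± 0.14 and NOP13 by 0.38 ± 0.139, while RRP5 (-0.23) did not pass. Without single libraries these 3 falls ranged from -0.96 to -0.53, from -0.58 to -0.20 and from -0.60 to -0.19.

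NOP16, a protein of the immature large subunit, had 410 and 503 RPKM in XH7 GX cells, against 267 and 259 RPKM in XH7 X cells. It rose by 0.80 ± 0.122 (adjusted p = 0.000657), and both GX libraries were well above the X libraries. NOP53 had 116 and 147 RPKM in GX cells, against 99.8 and 98.8 RPKM in X cells, a rise of 0.41 ± 0.124 (adjusted p = 0.0234). RRP14, needed for both subunits, had 136 and 159 RPKM in GX cells, against 119 and 123 RPKM in X cells, a rise of 0.28 ± 0.103 (adjusted p = 0.0476). TIF6 had 351 and 409 RPKM in GX cells, against 325 and 325 RPKM in X cells, and its change of 0.23 ± 0.108 did not pass (adjusted p = 0.112).

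The XH7 counts depended on single libraries and on scaling. Without GX replicate 1, 7 members rose and 7 fell, against 24.4% and 20.1% of all genes. Without GX replicate 2, 1 rose and 34 fell, against 22.0% and 19.0%. Without X replicate 1 the counts were 1 and 10, against 17.9% and 17.6%, and without X replicate 2 they were 1 and 12, against 18.2% and 17.2%. Only 8 members kept their call in all 8 such fits, namely UTP21, UTP22, RRP9, YTM1, RRP1, MAK16 and SSF1, which fell, and NOP16, which rose. The fall of CBF5 was lost without GX replicate 1 and without X replicate 2, and its change ranged from -0.60 to -0.37 over the 8 fits. The rise of NOP53 was lost without either X library or GX replicate 2, and that of RRP14 in 6 of the 8 fits. Scaled by library totals, 7 members rose and 8 fell, against 38.8% and 13.8% of all genes, and by limma on FPKM + 1, 5 rose and 7 fell, against 39.0% and 13.5%. Under library totals the median of all genes moved by 0.20 in XH7, and the members' median relative to it was -0.32, the same as with TMM.

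**Figure D3:**
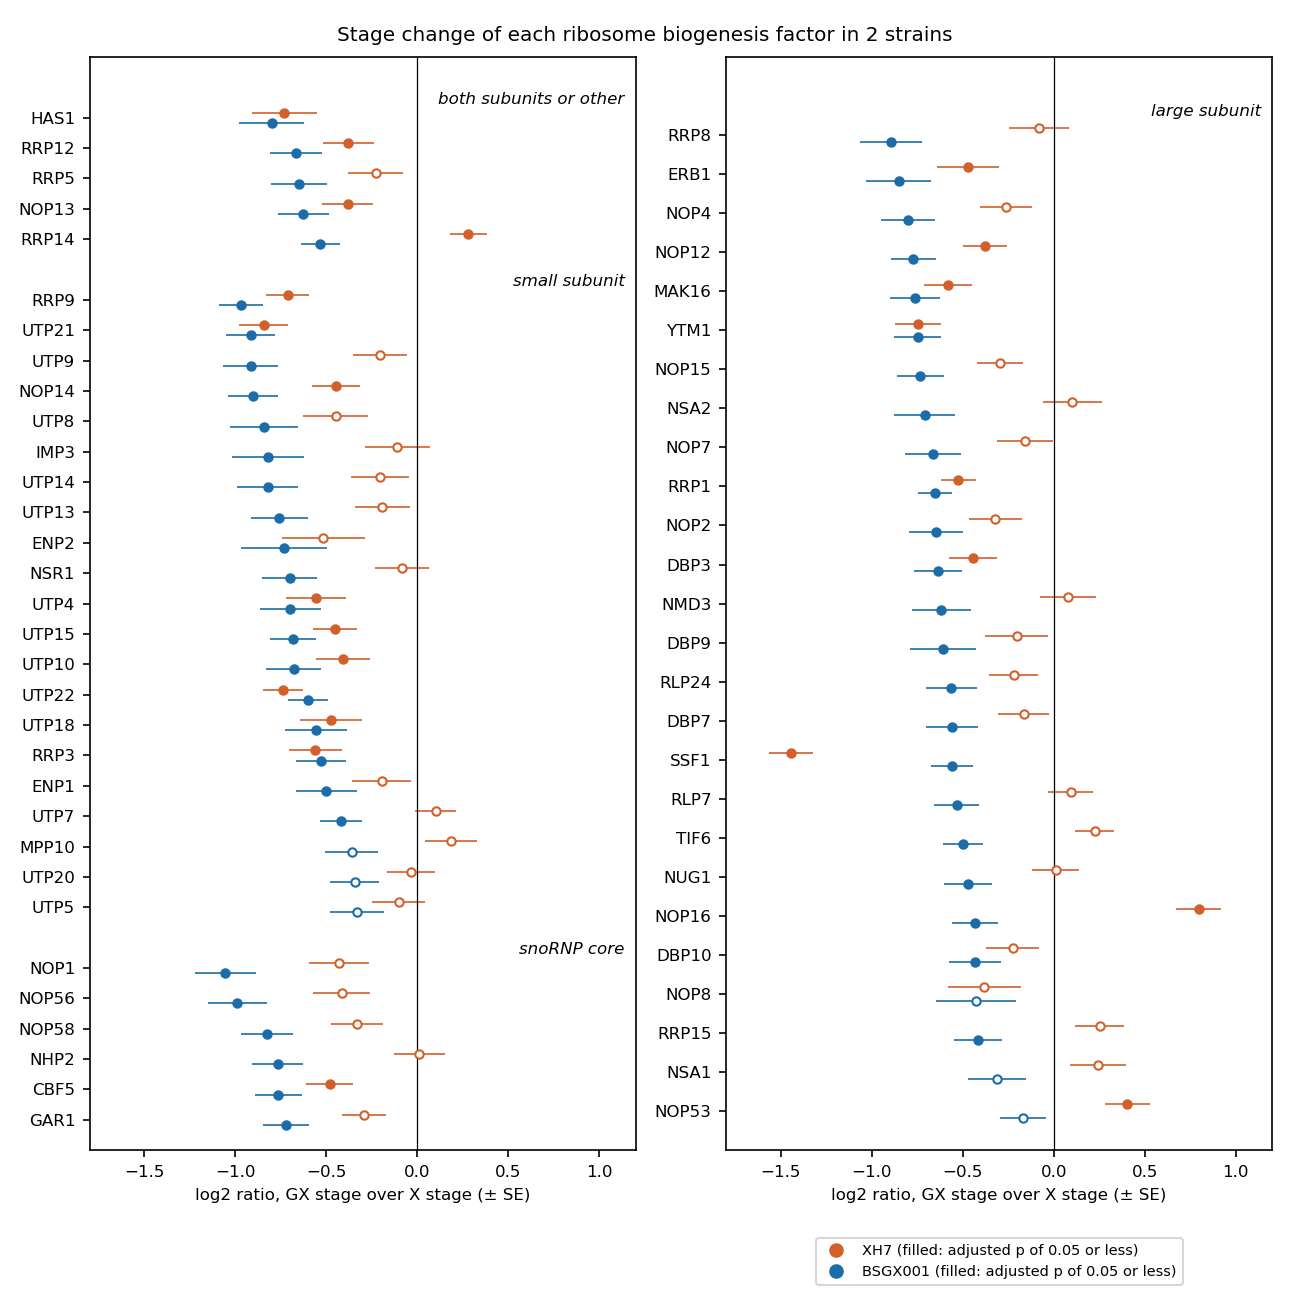
log2 ratio of the GX stage over the X stage (± SE) for each of the 58 members by class, in XH7 (orange) and BSGX001 (blue), where filled points have an adjusted p of 0.05 or less. All BSGX001 points lie below 0, while the XH7 points spread between SSF1 at -1.45 and NOP16 at 0.80.

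The strains were compared directly by testing the difference of the stage changes, XH7 minus BSGX001. The change was more negative in BSGX001 for 55 of 58 members, and the median difference was 0.40 over the members and 0.05 over all tested genes. The difference passed the test as higher in XH7 for 12 members and lower for 1, against 15.4% and 14.2% of all genes. As shares of the members these counts are 20.7% and 1.72%. The median difference was 0.20 without XH7 GX replicate 2, 0.21 without BSGX001 X replicate 1 and 0.59 without XH7 GX replicate 1. The largest positive difference was that of NOP16, at 1.23 ± 0.175 (adjusted p = 0.00132). RRP14 differed by 0.81 ± 0.148 (adjusted p = 0.00398) and TIF6 by 0.73 ± 0.154 (adjusted p = 0.00785). NSA2 and RRP8 differed by 0.81 each, NHP2 by 0.78 and UTP9 by 0.71, with adjusted p values from 0.0173 to 0.0326. SSF1 differed by -0.89 ± 0.166 (adjusted p = 0.0045), and with SSF2 added the difference was -0.16 (adjusted p = 0.455).

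By stage, 20 members fell in both strains, 30 fell in BSGX001 and did not pass in XH7, and NOP16 and RRP14 fell in BSGX001 and rose in XH7. The change of NOP16 in BSGX001 was -0.43 ± 0.126, and between -0.53 and -0.31 without single libraries. That of RRP14 in XH7 ranged from 0.16 to 0.39. Neither of these calls held in every such fit. YTM1 and UTP21 had almost equal changes in the strains, with differences of 0.003 ± 0.172 and 0.07 ± 0.192. The count of 12 ranged from 3 to 33 when single libraries were left out. It was 33 without XH7 GX replicate 1, against 17.7% of all genes, and 25 without BSGX001 X replicate 2, against 15.7%. It was 5 without XH7 GX replicate 2, against 12.6%, and 4 without BSGX001 X replicate 1, against 11.9%. Without any of the other 4 libraries it was 3, against 8.18% to 8.72% of all genes. By library totals it was 29, against 27.3%. How the members' share compared with that of all genes therefore changed with the library left out. NOP16, RRP14 and SSF1 kept the call in all 8 fits.

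Genes for cytosolic ribosomal proteins, which make the protein part of the ribosome that these factors assemble, did not show this difference in median. Of 127, 123 fell in XH7 (median -0.86) and 127 fell in BSGX001 (median -0.81). The median difference of their changes was -0.02, with 4 higher and 4 lower.

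**Figure D4:**
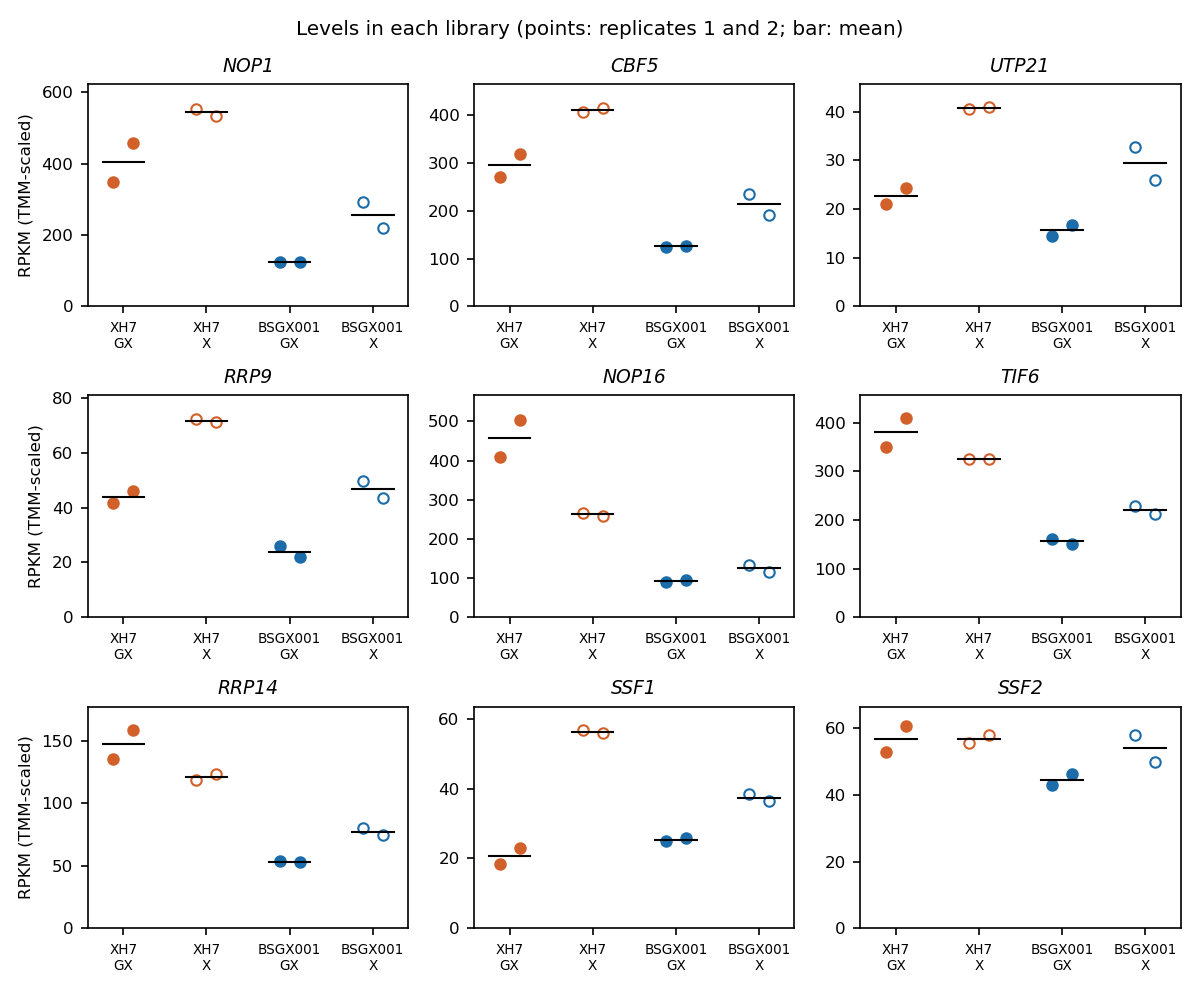
RPKM of 8 members and of SSF2, the paralog of SSF1, in each library, with points for replicates 1 and 2 and a bar at the mean (n = 2), for XH7 (orange) and BSGX001 (blue), GX filled and X open. NOP16 has 410 and 503 RPKM in XH7 GX cells, above every other library, while SSF1 is lowest there, at 18.5 and 23 RPKM.

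The members were higher in XH7 than in BSGX001 at both stages. In the X stage, 53 of 58 were higher and 0 lower, with a median of 0.77, against 26.5% of all genes higher and 29.0% lower. In the GX stage, 54 were higher and 0 lower, with a median of 1.23, against 33.4% and 32.6%. The pair of comparisons shares no library. Both XH7 libraries lay above both BSGX001 libraries for 55 members in the X stage, against 37.9% of all genes, and for 56 members in the GX stage, against 43.1%. They lay below for 0 members in the X stage, against 41.4% of all genes, and for 1 member, SSF1, in the GX stage, against 41.7%. HAS1, RRP1 and RRP3 passed at neither stage, and SSF1 passed in the X stage (0.59 ± 0.111) and not in the GX stage (-0.30 ± 0.124, adjusted p = 0.058). With the counts of SSF2 added, SSF1 had differences of 0.31 in the X stage (adjusted p = 0.0354) and 0.15 in the GX stage (adjusted p = 0.263).

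In the X stage, NUG1, a GTPase of large-subunit export, had 237 and 233 RPKM in XH7, against 91.4 and 77.1 RPKM in BSGX001, a difference of 1.48 ± 0.133 (adjusted p = 2.82e-05). NOP8, NSR1, RLP24 and NOP58 followed at 1.25, 1.17, 1.16 and 1.12. In the GX stage, NOP16 had 410 and 503 RPKM in XH7, against 90.8 and 95.6 RPKM in BSGX001, a difference of 2.29 ± 0.128 (adjusted p = 9.08e-07). NUG1 had 213 and 261 RPKM in XH7, against 63.7 and 58 RPKM in BSGX001, or 1.96 ± 0.135. NSR1, NOP1 and NMD3, the export adaptor of the large subunit, were higher by 1.79, 1.71 and 1.70. Without single libraries the members' median ranged from 0.64 to 0.93 in the X stage and from 1.06 to 1.39 in the GX stage. By library totals 43 members were higher in the X stage, against 15.6% of all genes higher and 47.3% lower. By limma on FPKM + 1, which changes the test as well as the scaling, 36 were, against 14.8% and 47.2%. The median of all genes was lower by 0.29 in each of these. The genes of the ribosomal proteins were also higher in XH7, 126 of 127 in the X stage and 122 in the GX stage, with medians of 0.85 and 0.84.

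The stage changes were then set beside the promoter cores. In BSGX001, the 29 members with both PAC and RRPE all fell, with a median of -0.73, and 21 of 25 with PAC alone fell, with a median of -0.53. Outside the members, 55.0% of the 149 other tested genes with both cores fell in BSGX001 (median -0.41), compared with 49.4% of the 174 with RRPE alone (median -0.28), 25.5% of the 882 with PAC alone (median -0.03) and 22.7% of the 4199 with neither (median 0.01). Other genes of the pathway, listed below, were not taken out of this set, so its shares partly repeat their changes. Both cores were found in 25 of 46 other small-subunit and 17 of 48 other large-subunit promoters. They were also found in 6 of 21 other snoRNP and rRNA-processing promoters and 5 of 15 of the RNA polymerase I machinery. In XH7, 11 of the 29 members with both cores and 7 of the 25 with PAC alone fell, with medians of -0.33 and -0.19. Of the other genes, 25.5% with both cores, 32.2% with RRPE alone, 21.3% with PAC alone and 22.4% with neither fell in XH7. Their medians, in the same order, were -0.11, -0.15, 0.04 and 0.06, and the shares that rose were 14.8%, 14.4%, 25.1% and 29.4%. The 3 members that rose in XH7 held no RRPE core, as seen in the stretches above. That set was picked by its rise, so this is a description only. RRP3 and SSF1 lie back to back on chromosome VIII and share the printed stretch. In XH7, RRP3, a DEAD-box protein of the small subunit, had 33 and 43.7 RPKM in GX cells, against 59.5 and 53.5 RPKM in X cells, a fall of 0.56 ± 0.145, while SSF1 on the other side fell by 1.45, or by 0.55 with the counts of SSF2 added.

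Other genes of the pathway were taken from lists made by function. Their counts are read against the shares of all genes given above, 22.0% that fell and 26.7% that rose in XH7, and 24.7% and 23.0% in BSGX001. Of 46 other small-subunit factors, 8 fell and 2 rose in XH7 (17.4% and 4.35%, median -0.17), and 28 fell and 0 rose in BSGX001 (median -0.48). KRE33, an rRNA acetyltransferase, fell by 0.86 in XH7 and by 0.82 in BSGX001, and PWP2, of the UtpB complex, fell by 0.40 and 0.81. Of 48 other large-subunit factors, 5 fell and 6 rose in XH7 (10.4% and 12.5%, median -0.17), and 33 fell and 0 rose in BSGX001 (median -0.54). URB1 fell by 0.58 in XH7 and by 1.10 in BSGX001, and RSA1 rose by 0.92 in XH7 and did not pass in BSGX001 (0.30). Of 21 other snoRNP and rRNA-processing proteins, 2 fell and 1 rose in XH7 (9.52% and 4.76%, median -0.06), and 10 fell and 0 rose in BSGX001 (median -0.39). In XH7 the share that fell was thus below that of all genes in these 3 lists, while in BSGX001 it was above it. The share that rose was below that of all genes in both strains. The medians of the 3 lists were also below those of all genes, which were 0.04 in XH7 and -0.02 in BSGX001. SNU13, a protein of box C/D particles that is shared with the spliceosome, fell by 1.01 in BSGX001 and had a change of -0.07 in XH7, which did not pass. Of 14 tested genes of the RNA polymerase I machinery, 4 fell in XH7 and 7 in BSGX001, and 0 rose in either. RRN5, of the upstream activating factor of the polymerase, fell by 1.36 in XH7 and did not pass in BSGX001 (-0.18), and RPA49, a subunit of the polymerase, fell by 0.69 in XH7 and by 0.85 in BSGX001.

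The regulators of these genes did not move as a group. Of 13 tested, 5 rose and 3 fell in XH7, and 3 rose and 1 fell in BSGX001. DOT6, the repressor that binds PAC, rose by 0.34 ± 0.109 in XH7 (adjusted p = 0.0279) and by 0.93 ± 0.11 in BSGX001 (adjusted p = 0.000266). TOD6, its paralog, rose by 0.55 ± 0.167 in XH7 and had a change of -0.05 in BSGX001, which did not pass. CRF1, a co-repressor of ribosomal protein genes, rose by 0.95 in XH7 and by 0.85 in BSGX001, and RAP1, an activator of ribosomal protein genes, fell by 0.71 and 0.53.

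The labels of the engineered genes were checked in all libraries. COX4 ranged from 1186 to 2680 counts in the XH7 libraries, and 0 counts were found for it in any of the 4 from BSGX001 (a level of up to 3 counts per library is allowed by that). GRE3 and PHO13 had counts in every library, 145 to 492 and 245 to 1041, although PHO13 is labelled as an insertion site in XH7 and GRE3 in both strains. What part of each gene remains was not tested.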

How the data were processed

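Messenger RNA of 8 samples was sequenced by the authors on an Illumina instrument (duplicates of 4 combinations of strain and stage). The submitters' notes name build R64, and for the aligner, counting program and use of strand the entry is: not given in the sources used here. Each deposited table holds expected counts (estimated numbers of fragments, not scaled), FPKM values scaled by the authors for gene length and library total, and gene lengths. The authors' deposited comparison tables hold mean FPKM, log2 ratios and a probability score, and were not used.

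Expected counts were rounded, and a gene missing from a table was given 0. Genes were filtered with filterByExpr (minimum count 10, 5921 kept), scaled by TMM (factors 0.857 to 1.08) and tested by edgeR's quasi-likelihood method (edgeR 4.0.16, R 4.3.3). All 4 groups entered a joint fit without covariates. P values were adjusted by Benjamini-Hochberg, and "rose" or "fell" means that the adjusted p was at most 0.05, whatever the fold. The script was tested on simulated data. Of the 6170 identifiers, 5591 matched an R64 locus tag, and 57 of the 58 members had the same length there. BLAST 2.17.0 was used to find similar genes, and of the members SSF1 alone had one. RPKM values are scaled by TMM, and with 2 libraries per group the SD rests on a single difference. The results were recomputed with library totals, upper-quartile scaling or the size factors of DESeq2 1.42.0 in place of TMM, without the filter or with a stricter one (CPM of 10 in 2 samples), with DESeq2's Wald test, with limma 3.58.1 on log2(FPKM + 1) and log2(FPKM + 0.1), with a 2-fold limit, with each strain fitted alone, with a replicate block and without each library in turn. Adding SSF1 and SSF2 and crossing the replicate numbers of XH7 were chosen after seeing the data.

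The members, the lists and the tests were chosen with earlier results of these data known. In each class the text names the 2 members with the highest mean FPKM and, in each strain, those with the 3 largest and the smallest change, every member that rose, the 5 largest differences in each strain comparison, and up to 3 genes per list by the size of the change. UTP4, UTP8, UTP10, UTP15, UTP7, RRP3, MAK16, RRP1, NSA1, RRP15, RLP7, SSF2 and TOD6 were named after their values were seen.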

Additional observations from a re-analysis of the deposited data

Results flagged for a closer look

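The stage change, GX over X, differed between XH7 and BSGX001 for 13 members by the interaction term of the edgeR fit, given here as XH7 minus BSGX001 on the log2 scale with its SE. Of the members 12 were higher and 1 lower, against 15.4% and 14.2% of all tested genes, so 13 of 58 is not more than the share of all genes that passed. The largest was NOP16 at 1.23 ± 0.175. RRP14 differed by 0.814 ± 0.148, RRP8 by 0.813 ± 0.238, NSA2 by 0.811 ± 0.233, NHP2 by 0.779 ± 0.198, TIF6 by 0.726 ± 0.154 and UTP9 by 0.711 ± 0.212. NMD3 differed by 0.695 ± 0.223, RRP15 by 0.669 ± 0.187, RLP7 by 0.625 ± 0.174, NOP53 by 0.574 ± 0.178 and UTP7 by 0.52 ± 0.161. Among these 13, SSF1 alone had a more negative change in XH7, by -0.887 ± 0.166. With the counts of its paralog SSF2 added, that difference was -0.161 and did not pass (adjusted p = 0.455). NOP16, RRP14 and SSF1 passed in all 8 fits that left out 1 library, and TIF6 in 7. NHP2 passed in 5 of the 8, RLP7 in 3, and UTP9, UTP7, NOP53, RRP8, RRP15, NSA2 and NMD3 in 2. RRP15 is a protein of the immature large subunit, RLP7 resembles the ribosomal protein Rpl7, and UTP7 belongs to the small subunit processome.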

How the results depend on the processing

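For BSGX001, the members' median of -0.67 ranged from -0.78 to -0.51 without single libraries and the count that fell from 34 to 56. For XH7, the count that rose ranged from 1 to 7 and the count that fell from 7 to 34, with the median between -0.48 and -0.10. The median difference ranged from 0.20 to 0.59 and the count of positive differences from 3 to 33, and the count lower in XH7 in the GX stage from 0 to 1. With a 2-fold limit, 1 member fell in BSGX001, 0 rose and 1 fell in XH7, 9 were higher in XH7 in the X stage, and the difference passed for 1 higher and 0 lower. Of all 5921 tested genes, 120 fell in BSGX001 at that limit, and 389 rose and 348 fell in XH7. In the X stage 367 genes were higher in XH7, and the difference passed for 290 higher and 394 lower. In XH7, upper-quartile scaling, the DESeq2 Wald test and the strain fitted alone each gave 1 that rose. Library totals gave 7 that rose and 8 that fell, and limma 5 and 7 with either pseudocount. In the X stage the strain median was 0.485 by library totals, with 1 member lower, against 47.3% of all genes. It was 0.474 and 0.482 by limma with a pseudocount of 1 and 0.1, where 35 were higher with 0.1, against 14.7% of all genes. The positive differences numbered 29 by library totals, against 27.3% of all genes. They numbered 27 by limma with a pseudocount of 1 or 0.1, against 25.8% and 25.7%. In the GX stage, 1 member (SSF1) was lower in XH7 under the stricter filter, both limma fits, library totals, upper-quartile scaling and DESeq2 size factors. The cause of these shifts was not tested, beyond the scaling itself, which moved the median of all genes in XH7 by 0.20 under library totals.

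Changes of named members in XH7 that were near 0 and did not pass turned sign. NHP2 was -0.029 with DESeq2 size factors and the Wald test, -0.074 with upper-quartile scaling and -0.024 with the strain alone, where NUG1 was -0.03, -0.03, -0.075 and -0.024. NMD3 was -0.008 with upper-quartile scaling. With library totals and with limma at pseudocounts of 1 and 0.1, NSR1 was 0.115, 0.104 and 0.105, RRP8 0.116, 0.104 and 0.105, UTP20 0.164, 0.145 and 0.151, and UTP5 0.095, 0.083 and 0.084. Without single libraries, MPP10 ranged from -0.042 to 0.383, NHP2 from -0.229 to 0.218, NMD3 from -0.17 to 0.29, NSA2 from -0.086 to 0.268, NSR1 from -0.298 to 0.103, NUG1 from -0.141 to 0.146, RRP8 from -0.317 to 0.124, UTP20 from -0.26 to 0.162 and UTP5 from -0.336 to 0.102. Of 1154 values of named members under the alternatives, 1002 kept direction and call, 71 lost the call, 45 gained one and 36 turned sign.

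Replicate numbers did not pair the libraries, since the deviations of same-numbered X and GX libraries correlated at -0.276 in XH7 and -0.035 in BSGX001 over 5921 genes. With the replicate block, 52 members fell in BSGX001, against 23.2% of all genes. In XH7, 2 rose and 15 fell with it, against 25.1% and 20.8%. With the XH7 pairing crossed, 3 rose and 24 fell in XH7, against 26.8% and 22.8% of all genes. The difference then passed as positive for 20 members, against 16.6% of all genes. Depth was 5279864 counts or more per library, and with 2 libraries per group the spread between them, not the counting error, sets the limit.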
